A study of Drosophila melanogaster with 2 samples.

Results

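Transfer RNA (tRNA) genes were described across the ChIP-seq peaks of CG32264, a fly protein that belongs with the phosphatase and actin regulators. The members were the 290 genes that Ensembl BDGP6 annotates as tRNA on the nuclear chromosome arms, of 18164 genes in all other than transposable elements, and the 22 mitochondrial tRNA genes were left out. Each gene entered by annotation alone, not by any peak value, though the set was chosen with earlier results of these data known. Whole Drosophila melanogaster larvae of the third instar, wandering before pupariation and of both sexes pooled, carried an insertion that expresses CG32264 with green fluorescent protein (GFP) at its C terminus. An antibody against GFP pulled down the fusion protein from chromatin sonicated to 200 to 800 bp, per the labels. The series held 1 group of 2 biological replicates, numbered 1 and 3, with no other genotype, treatment or stage, and larvae without the fusion protein are not analysed here. All tissues of the animal were mixed, so a peak cannot be assigned to a cell type, and larval age is given as unknown.

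tRNA genes are short genes read by RNA polymerase III. Their promoters lie inside the gene, as an A box and a B box that bind the factor TFIIIC, which in turn places TFIIIB just upstream of the start, and a run of T ends the transcript. Flies carry many near-identical copies of most tRNA genes, often in clusters of mixed orientation, and each copy is named by its amino acid and anticodon. In yeast, tRNA genes and TFIIIC are also known to act as insulators between stretches of chromatin.

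A tRNA gene was counted as having a peak if its 5′ end had, at 500 bp or less, the summit of an optimal-set peak. The optimal set is the list that the authors kept after the irreproducible discovery rate (IDR) step, which compares peak ranks between replicates. By that rule 11 tRNA genes had a peak. Of these, 10 are given first by their sequence, since it shows that the peaks fell both at tRNA genes with a sequence of their own and at members of repeated copies. Sequences were compared over the whole annotated gene, with any intron included. The other, tRNA:His-GTG-1-3, is described with its values only. The sequences are RefSeq's, of Release 6 of the genome (dm6), read 5′ to 3′ along the tRNA. Capitals mark a match to the B box letters GTTCNANNC, which were searched in the gene on the tRNA strand. The 2 copies of alanine tRNA (73 bases each) have no match to these letters, and their sequences do not differ from each other.

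tRNA:Lys-TTT-1-1: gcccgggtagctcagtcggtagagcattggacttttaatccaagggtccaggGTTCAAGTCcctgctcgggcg
tRNA:Tyr-GTA-1-8: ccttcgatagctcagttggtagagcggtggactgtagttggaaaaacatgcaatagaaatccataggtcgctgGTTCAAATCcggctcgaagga
tRNA:Ala-AGC-2-2 and tRNA:Ala-AGC-2-3: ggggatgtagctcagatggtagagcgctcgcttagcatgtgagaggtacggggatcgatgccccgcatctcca
tRNA:Pro-TGG-1-2: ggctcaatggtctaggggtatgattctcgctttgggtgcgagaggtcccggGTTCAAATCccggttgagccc
tRNA:Val-CAC-2-5: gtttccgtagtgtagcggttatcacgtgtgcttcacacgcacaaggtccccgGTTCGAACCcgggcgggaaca
tRNA:Leu-TAA-2-1: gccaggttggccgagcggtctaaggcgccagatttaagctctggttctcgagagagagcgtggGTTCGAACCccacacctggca
tRNA:Gln-TTG-1-2 and tRNA:Gln-TTG-1-3: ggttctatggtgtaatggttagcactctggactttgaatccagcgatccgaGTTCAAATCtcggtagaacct
tRNA:Gln-TTG-2-1: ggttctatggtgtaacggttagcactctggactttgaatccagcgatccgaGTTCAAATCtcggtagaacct

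These 10 genes lie at chr2L:8290727-8290799 on the plus strand (tRNA:Lys-TTT-1-1), chr3R:8669081-8669174 on the minus strand (tRNA:Tyr-GTA-1-8), chr3R:17619738-17619810 on the plus strand (tRNA:Ala-AGC-2-2) and chr3R:17620144-17620216 on the minus strand (tRNA:Ala-AGC-2-3). The proline gene lies between the alanine genes at chr3R:17619961-17620032 on the plus strand, the valine gene at chr3R:19672277-19672349 on the minus strand and the leucine gene at chr3R:24112964-24113047 on the plus strand. The glutamine genes lie at chr3R:26947263-26947334 and chr3R:26947512-26947583 (tRNA:Gln-TTG-1-2 and tRNA:Gln-TTG-1-3) and chrX:3427452-3427523 (tRNA:Gln-TTG-2-1), all on the minus strand. Counted from 1 at the 5′ end of tRNA:Gln-TTG-1-2, the gene on X differs from it by 1 substitution, T16C. The tyrosine gene holds an annotated intron of 21 bp.

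The peak centres did not lie in the tRNA genes. For the summit with the highest signal, at tRNA:Tyr-GTA-1-8, and for both summits over 1000 bp from any protein-coding start, the 101 bases around the summit are given below, on the plus strand of dm6, with the summit base in capitals. They span chr3R:8669344-8669444, chrX:3427702-3427802 and chr2L:8291015-8291115, in the order printed, and none of them includes any base of the tRNA gene.

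Summit at tRNA:Tyr-GTA-1-8: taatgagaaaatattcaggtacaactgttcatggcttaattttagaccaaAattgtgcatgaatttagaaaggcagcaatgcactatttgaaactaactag
Summit at tRNA:Gln-TTG-2-1: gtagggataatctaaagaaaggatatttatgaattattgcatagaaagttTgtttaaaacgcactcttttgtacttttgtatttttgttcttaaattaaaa
Summit at tRNA:Lys-TTT-1-1: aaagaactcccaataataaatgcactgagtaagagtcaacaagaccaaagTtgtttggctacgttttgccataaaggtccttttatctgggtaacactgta

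Few tRNA genes had a strong peak. The 11 were 3.79% of the 290 (exact 95% interval 1.91 to 6.69%), and 7.48% of all 18164 genes had a summit of the optimal set that close to their 5′ end. The share of protein-coding genes was 8.73% (interval 8.26 to 9.21%), that of genes annotated as ncRNA 3.59% (2.98 to 4.28%) and that of small nucleolar RNA genes 2.97% (1.29 to 5.78%). Of the smaller classes, small nuclear RNA genes had 3.12% (1 of 32, interval 0.0791 to 16.2%) and pseudogenes 1.49% (0.408 to 3.78%). The tRNA interval lay below that of coding genes and overlapped those of the ncRNA, small nucleolar RNA, small nuclear RNA and pseudogene classes, and no test of these differences was run. Every gene entered with a single 5′ end, so genes with several annotated starts had no more chances than a tRNA gene.

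With weaker peaks and background regions included, many tRNA genes had a summit, as did many genes of all kinds. In the list made from both replicates before IDR, which holds 30000 peaks and background regions, 137 tRNA genes had a summit within 500 bp (47.2%, interval 41.4 to 53.2%), against 39.8% of all genes. In that list coding genes had 43.1% (42.3 to 43.9%), ncRNA genes 29.5% (27.9 to 31.1%), small nucleolar RNA genes 25.3% (20.2 to 30.9%) and pseudogenes 15.3% (11.2 to 20.2%). Small nuclear RNA genes, another short class, had 50% (16 of 32, interval 31.9 to 68.1%). The tRNA interval overlapped those of coding and small nuclear RNA genes and lay above those of the other 3 classes. Neighbouring tRNA genes share summits, so the 137 are not independent. The nearest summit of the whole list lay at a median of 554 bp from a tRNA 5′ end, 549 bp from that of a small nuclear RNA gene and 863 bp from a coding one. For the optimal set the medians were 16261 bp, 24568 bp and 15729 bp.

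The peaks that tRNA genes had in the whole list were mostly low. The best rank ran from 183 to 29653, with a median of 11603 for the 137 tRNA genes and 7968 for the 7230 genes of all kinds that had one. Of the 137, 11 (8.03%) reached the optimal set, against 18.8% of the 7230. The signal, the authors' own peak value on the scale of that list, ran from 13.3 to 226 with a median of 24.4 over these tRNA genes.

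**Figure D1:**
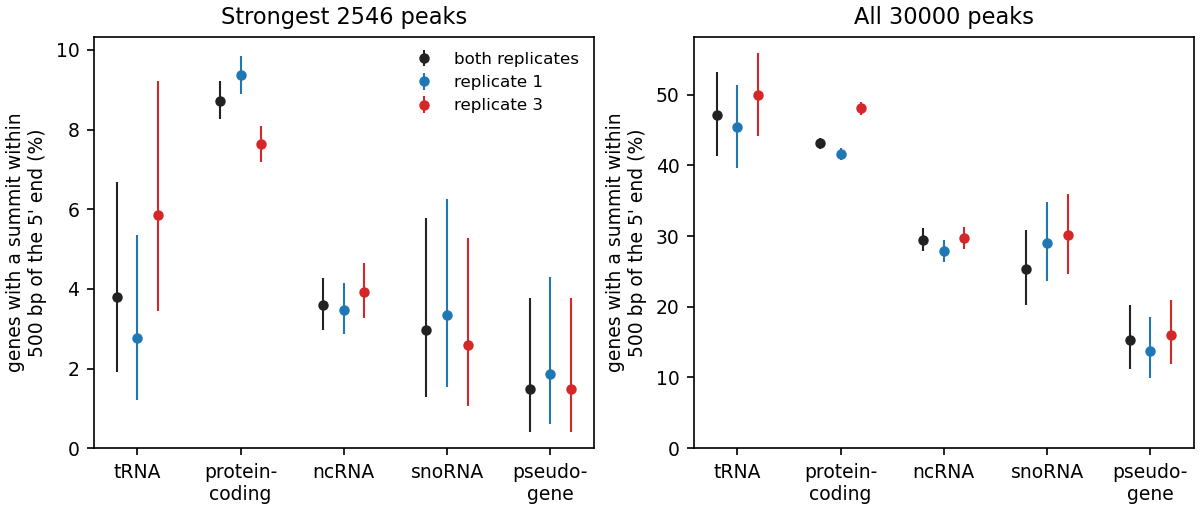
Share of genes with a summit within 500 bp of the 5′ end (percent, y axis) by annotated class (x axis), for the strongest 2546 peaks (left) and for all 30000 peaks (right). Points are the list of both replicates, replicate 1 and replicate 3, and bars are exact 95% intervals that cover counting error only. tRNA genes sit at 3.79% on the left and 47.2% on the right.

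The 11 genes shared 8 summits, which ranked 183 to 2457 of the 2546 in the optimal set. Their signal ran from 62.7 to 226 with a median of 97.7, and the median of all peaks of the optimal set was 90.2. Each of the 11 genes also had a summit within 500 bp in the whole list of replicate 1 and in that of replicate 3. The ranks of these summits in the optimal set equalled their ranks in the list from both replicates. Since that list is made from the replicates, a summit in each replicate, or a like rank there, is no independent check. The values of the members follow by amino acid, with the rank and signal in each replicate on the scale of its own list.

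tRNA:Tyr-GTA-1-8, which decodes tyrosine codons, had the strongest peak (3R, 8669276 to 8669437, rank 183, signal 226). It ranked 206 in replicate 1 (signal 136) and 222 in replicate 3 (signal 87.4), so the replicates placed it alike. The summit lay 220 bp upstream of the tRNA and 224 bp from a start of CG8036, and thus almost midway between them, in introns of CG8036 and of p, the pink gene of eye pigment granules. A neighbour in the same cluster, tRNA:Tyr-GTA-1-7, lay 689 bp from this summit and did not count.

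The glutamine family held the most genes with a peak, 3 of 12. tRNA:Gln-TTG-2-1 had the next strongest (X, 3427708 to 3427806, rank 488, signal 147), with rank 410 in replicate 1 (signal 98.3) and 627 in replicate 3 (signal 56.2). Its summit lay 229 bp upstream of the gene, inside CG12535, and 8055 bp from the nearest coding start. tRNA:Gln-TTG-1-2 and tRNA:Gln-TTG-1-3 shared a weak peak (3R, 26947270 to 26947645, rank 2435, signal 63.2). That peak was outside the top 2546 of replicate 1 (rank 3247, signal 31.7) and inside that of replicate 3 (rank 1602, signal 36.5). Its summit sat between the genes, 124 bp upstream of the first and 54 bp beyond the end of the second, with a start of Spag1 at 372 bp.

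tRNA:His-GTG-1-3, a histidine tRNA gene (2R, 12334995 to 12335066), had a peak at 12335045 to 12335420 (rank 682, signal 126). It ranked 744 in replicate 1 (signal 73.2) and 699 in replicate 3 (signal 53.6). The summit lay 167 bp upstream of the tRNA and only 83 bp from a start of CG8490. The coding start was thus nearer to this summit than the tRNA was.

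tRNA:Lys-TTT-1-1, a lysine tRNA gene within Btk, the fly Tec-family kinase gene, had a peak at 2L, 8290978 to 8291089 (rank 1060, signal 100). It ranked 1002 in replicate 1 (signal 61.5) and 1379 in replicate 3 (signal 39.5). The summit lay 338 bp downstream of the 5′ end and 6059 bp from the nearest coding start, so here and at tRNA:Gln-TTG-2-1 the tRNA was the nearer start by far.

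tRNA:Val-CAC-2-5 had the most distant summit of the 11, 471 bp downstream of its 5′ end (3R, 19671690 to 19672065, rank 1165, signal 95.3). It ranked 1269 in replicate 1 (signal 54.5) and 1274 in replicate 3 (signal 40.8). A start of its host gene Naam, which encodes nicotinamidase, was nearer to the summit, at 428 bp. With histidine this was the other of the 2 genes whose summit lay nearer a coding start.

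tRNA:Leu-TAA-2-1 had a peak 232 bp upstream (3R, 24112544 to 24112919, rank 1687, signal 77.8). It was placed unequally by the replicates, at rank 1594 in replicate 1 (signal 48) and 4930 in replicate 3 (signal 20.7). A start of CG13605 lay 343 bp from the summit.

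The alanine and proline genes shared the weakest peak (3R, 17619652 to 17620027, rank 2457, signal 62.7), which was outside the top 2546 of both replicates. It ranked 3209 in replicate 1 (signal 31.8) and 2856 in replicate 3 (signal 27.6). Its summit lay 102 bp from the 5′ end of tRNA:Ala-AGC-2-2, and 30 bp beyond that gene's end. It lay 121 bp upstream of tRNA:Pro-TGG-1-2 and 376 bp from tRNA:Ala-AGC-2-3. The nearest coding start, of CG14326, was 740 bp away.

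**Figure D2:**
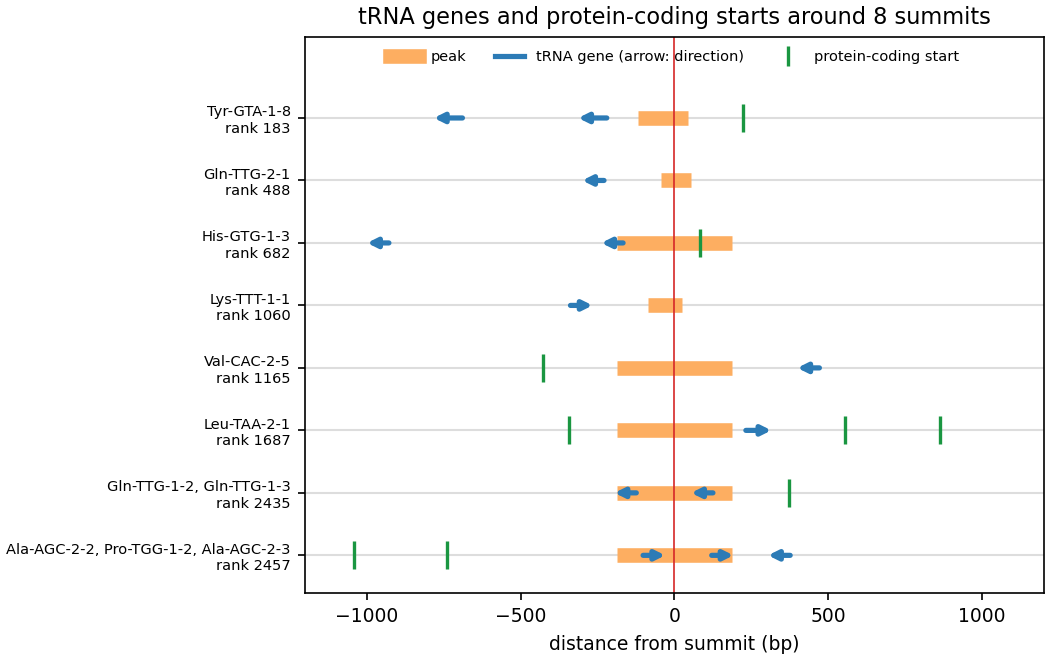
Maps of the 8 summits of the optimal set with a tRNA 5′ end within 500 bp, ordered by rank, with distance from the summit in bp on the x axis. Orange bars are the authors' peaks, blue arrows are tRNA genes pointing in their direction of transcription and green marks are annotated starts of protein-coding genes. No summit (red line) falls inside a tRNA gene, and 5 of the 8 have a coding start within 500 bp.

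None of the 8 summits lay within a tRNA gene or in any annotated exon, and 4 lay inside a protein-coding gene. Relative to the direction of transcription, the summit was upstream of 6 of the 11 tRNA genes and downstream of the 5′ end of 5. The peak interval, 376 bp at most, covered part of the tRNA gene in 5 of the 11 cases. Just inside the limit of 500 bp were tRNA:Lys-TTT-1-1 (338 bp), tRNA:Ala-AGC-2-3 (376 bp) and tRNA:Val-CAC-2-5 (471 bp). Just outside it were tRNA:Arg-ACG-1-1 (595 bp from a summit inside EcR, the ecdysone receptor gene), tRNA:Leu-CAA-2-2 (617 bp) and tRNA:Tyr-GTA-1-7 (689 bp).

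A protein-coding start lay near most tRNA genes with a peak. It was within 500 bp of 5 of the 8 summits, and nearer than the tRNA 5′ end at 2 of the 8. Of the 79 tRNA genes with a coding start within 1000 bp of their own 5′ end, 8 had a peak (10.1%, interval 4.47 to 19%). Of the 211 without one, 3 had a peak (1.42%, interval 0.294 to 4.1%), namely tRNA:Lys-TTT-1-1, tRNA:Gln-TTG-2-1 and tRNA:Ala-AGC-2-3. The intervals of these shares do not overlap, but neighbouring genes shared peaks and no test was run. The ncRNA genes showed the same order with a smaller gap, at 6.09% (57 of 936) with such a start and 2.58% (60 of 2325) without, as did small nucleolar RNA genes at 7.06% (6 of 85) and 1.09% (2 of 184). In the whole list of 30000 peaks the tRNA shares were 63.3% (50 of 79) and 41.2% (87 of 211). The interval of the latter, 34.5 to 48.2%, includes the 39.8% of all genes, most of which are coding genes. In that list ncRNA genes had 41.2% with such a start and 24.7% without (interval 23 to 26.5%). Small nucleolar RNA genes had 34.1% and 21.2% (interval of the latter 15.5 to 27.8%). Both intervals without such a start lay below that of tRNA genes. The nearest coding start lay at a median of 638 bp from the 11 tRNA genes and 3033 bp from the other 279. Whether a peak between a tRNA gene and a coding start belongs to either was not tested.

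The replicates placed different numbers of tRNA genes near their strongest peaks. Among the top 2546 peaks of replicate 1, 8 tRNA genes had a summit within 500 bp (2.76%, interval 1.2 to 5.36%), against 7.93% of all genes. Among those of replicate 3 there were 17 (5.86%, interval 3.45 to 9.22%), against 6.73% of all genes. The count was thus higher in replicate 3 for tRNA genes while the count over all genes was higher in replicate 1. Neighbouring genes share summits, and by cluster the counts were closer, at 8 in replicate 1 and 11 in replicate 3. With 1 library on each side, the difference has no replicate check and was not tested. The 3 genes near a top peak of replicate 1 only were tRNA:Leu-TAA-2-1, tRNA:Trp-CCA-2-2 and tRNA:Ile-AAT-1-3, the last at rank 2506 in replicate 1 and 19327 in replicate 3.

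The tRNA genes near top peaks were also partly different ones. The 5 found in both were tRNA:Tyr-GTA-1-8, tRNA:Gln-TTG-2-1, tRNA:His-GTG-1-3, tRNA:Lys-TTT-1-1 and tRNA:Val-CAC-2-5. They made up 62.5% of the replicate 1 genes and 29.4% of the replicate 3 genes (interval 10.3 to 56%), and over all genes the shares were 54.2% and 63.9%. Genes that share a summit are counted separately here, and the interval treats them as independent, which they are not. Of the 12 tRNA genes near a top peak of replicate 3 only, which lie in 6 clusters, the replicate 3 ranks ran from 1602 to 2281. In replicate 1, 9 of these had their best summit at rank 3247 to 26139 and 3 had none within 500 bp. They were picked out after the values were seen and include 4 leucine genes of a single cluster on 3L (tRNA:Leu-CAG-1-2, tRNA:Leu-CAG-1-3, tRNA:Leu-CAG-1-4 and tRNA:Leu-CAG-1-6). The first 3 of these shared a summit of rank 2281 in replicate 3 (signal 30.7) and 5845 in the list of both replicates (signal 37.5), and it is these 3 that had none in replicate 1. Without a coding start within 1000 bp, 10 of 211 tRNA genes had a top peak in replicate 3 (4.74%) and 2 of 211 in replicate 1 (0.948%). With one, 7 and 6 of 79 did (8.86% and 7.59%).

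In the whole lists the replicates were closer. A summit lay within 500 bp of 132 tRNA genes in replicate 1 (45.5%, against 38.4% of all genes) and of 145 in replicate 3 (50%, against 43.8%). Both lists held 94, which is 71.2% of the replicate 1 genes and 64.8% of the replicate 3 genes. Over all genes these shares were 72.3% and 63.3%, near those of tRNA genes. Replicate 1 alone had 38, replicate 3 alone 51, and 107 of the 290 had no summit that close in either. Of all 18164 genes, 6971 had a summit that close in replicate 1, 7960 in replicate 3 and 5042 in both. The share in both was 27.8% of all genes and 32.4% of tRNA genes.

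**Figure D3:**
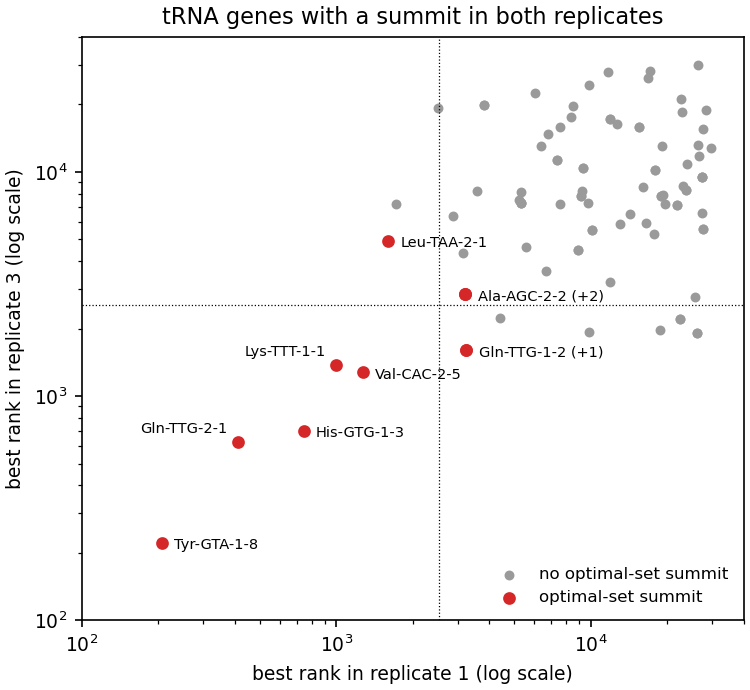
Best rank of a summit within 500 bp of each of the 94 tRNA genes that had one in both replicates, in replicate 1 (x axis, log scale) against replicate 3 (y axis, log scale), where rank 1 is the highest signal. Red points are the 11 tRNA genes with a summit in the optimal set, with genes that share a summit drawn as a single point, and dotted lines mark rank 2546. The 5 genes in the lower left are within the top 2546 of both.

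The next tRNA genes below the optimal set, by rank in the list of both replicates, differed in how the replicates placed them. The best summits within 500 bp in each list need not be the same peak. tRNA:Leu-CAG-1-1 came first (rank 3119, signal 54.5), with rank 3165 in replicate 1 (signal 32.1) and 4325 in replicate 3 (signal 22.3). tRNA:Trp-CCA-2-2 and tRNA:Gly-GCC-1-9, a tryptophan and a glycine gene that face each other, shared a summit of rank 3384 (signal 51.9). For the tryptophan gene the best summits ranked 1713 in replicate 1 and 7195 in replicate 3, so replicate 1 placed it higher. tRNA:Leu-CAG-1-6 (rank 3658), tRNA:Glu-TTC-1-5 (rank 3671) and tRNA:Arg-ACG-1-1 (rank 3802) were placed higher in replicate 3, at 1969, 3623 and 2236 against 18797, 6683 and 4385 in replicate 1. tRNA:Ile-TAT-1-1, the only one of these with its summit within 50 bp of the 5′ end in all 3 lists, had rank 3835, with 5593 in replicate 1 and 4613 in replicate 3. It is an isoleucine gene with a sequence of its own when its intron is included, 14014 bp from the nearest coding start. tRNA:Ser-CGA-1-4 and tRNA:Val-AAC-2-1 shared a summit of rank 3869, and tRNA:Arg-TCT-1-1 had rank 4070. These last 3 were far apart between replicates, at 2199, 2199 and 1904 in replicate 3 and 22542, 22542 and 26139 in replicate 1.

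By amino acid, the 290 genes fell into 22 families, which are the 20 standard amino acids, initiator methionine and selenocysteine. Of these, 8 held a gene with a peak of the optimal set, namely glutamine (3 of 12), alanine (2 of 17), and histidine (1 of 5), tyrosine (1 of 10), valine (1 of 15), proline (1 of 17), lysine (1 of 19) and leucine (1 of 22). The other 14 held none, including arginine, the largest family, with 0 of 26, and glycine and serine with 0 of 20 each. Since 3.79% of all tRNA genes had such a peak, a count of 0 in families of this size does not set them apart. In the whole list every family had at least 1 gene with a summit within 500 bp. The highest shares among families of 5 genes or more were histidine with 5 of 5 and isoleucine with 9 of 11 (81.8%). The lowest were tyrosine with 2 of 10 and serine with 4 of 20 (20% each), then glycine with 5 of 20 and phenylalanine with 2 of 8 (25% each). Histidine and isoleucine genes also had a summit in both replicates in 5 of 5 and 8 of 11 cases, whereas glycine genes did in 2 of 20. Tyrosine held the highest peak of any tRNA gene and had few weak peaks, and isoleucine had many weak peaks and none in the optimal set. Families differ in how many of their genes lie together in clusters, and genes of a cluster share peaks, so these counts are not independent.

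**Figure D4:**
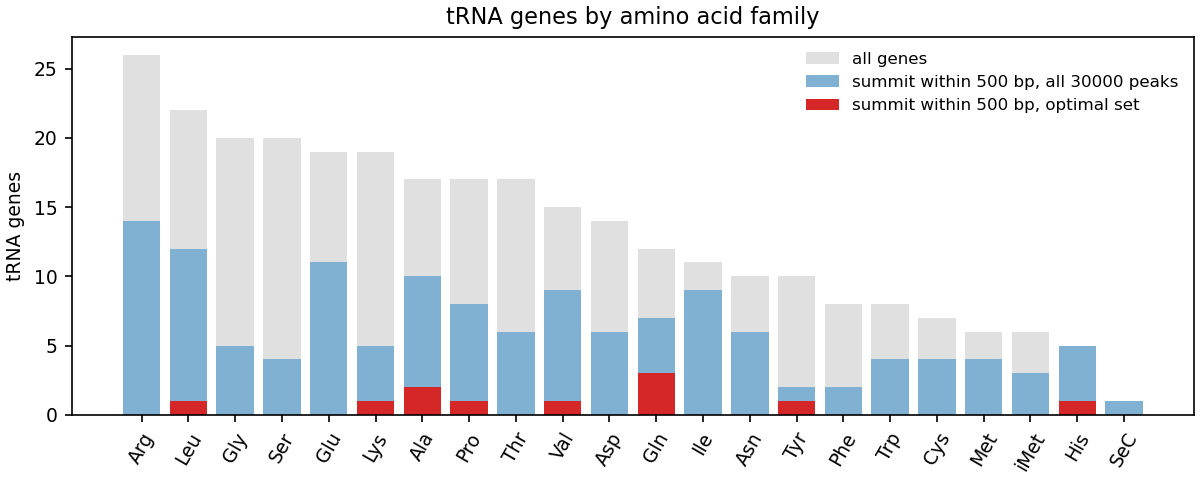
Number of tRNA genes (y axis) in each of the 22 amino acid families (x axis; iMet, initiator methionine; SeC, selenocysteine). Grey bars are all genes, blue bars those with a summit within 500 bp in the list of 30000 peaks from both replicates and red bars those with a summit of the optimal set, each bar drawn from 0. Glutamine has 3 genes with a summit of the optimal set and arginine, the largest family, has 0, where the share over all tRNA genes is 3.79%.

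When tRNA genes within 5000 bp of the next were joined, they formed 144 clusters, of which 76 were single genes and 68 held 214 genes together. A peak of the optimal set lay at 8 clusters, 4 of them single genes. Of genes in clusters 7 of 214 had a peak (3.27%, interval 1.33 to 6.62%) and of single genes 4 of 76 (5.26%, interval 1.45 to 12.9%), with intervals that overlap. In the whole list the shares were 49.5% (interval 42.6 to 56.4%) and 40.8% (interval 29.6 to 52.7%), and these intervals overlap as well.

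Among the 5 clusters with the most genes, the 11 genes at 3R, 17617761 to 17631750 (4 alanine, 3 proline, 2 threonine and 2 valine genes) held 3 genes with a peak of the optimal set, all from the summit between the alanine and proline genes, and 7 with a summit of the whole list. A cluster of the same size at 2R, 6161535 to 6171759 (4 lysine, 3 arginine, 3 asparagine genes and 1 isoleucine gene) had none of the optimal set and 3 of the whole list, the best at rank 11536. A coding start lay within 1000 bp of 8 of the 11 genes of the first and of 1 of the 11 genes of the second. The 7 genes at 2R, 13430282 to 13432794 (5 isoleucine, 2 leucine) had 6 of 7 in the whole list, with a best rank of 4221. The 7 at 2R, 19725620 to 19728958 (5 glutamate, 2 initiator methionine) had 4 of 7, and the 7 on X at 14014814 to 14017284 (5 arginine, 2 serine) had 2 of 7, the best at rank 29462. The largest clusters thus ran from 3 of 11 to 6 of 7 genes with a summit of the whole list. The histidine cluster (4 genes within 2564 bp) had a summit of the whole list at all 4.

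On the arms, 8 of the 11 genes were on 3R (of 79 tRNA genes), and 2L, 2R and X had 1 each (of 41, 98 and 24). On 3R, 3 of the genes shared the summit of rank 2457 and 2 shared that of rank 2435. The shares of all genes by arm are not given here, so the count on 3R has no background beside it. 3L had none of 48. In the whole list the counts were 37 on 3R, 14 on 2L, 53 on 2R, 6 on X and 27 on 3L. Arm 4 holds no annotated tRNA gene.

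The 290 genes had 95 distinct sequences, and the most repeated ones, of glycine GCC and lysine CTT, occurred 13 times. Of the 52 genes with a sequence of their own, 4 had a peak (7.69%, interval 2.14 to 18.5%), which are the lysine, tyrosine and leucine genes and tRNA:Gln-TTG-2-1. Of the 238 with copies, 7 had a peak (2.94%, interval 1.19 to 5.97%). Introns were part of the compared sequence, so a gene such as the tyrosine gene can count as single through its intron. Whether such genes also differ outside the intron was not examined. The shares in the whole list were 40.4% (interval 27 to 54.9%) and 48.7% (interval 42.2 to 55.3%), in the opposite order, and the intervals overlap in each case. Taken whole, as an exact match, the gene with 100 bp of flank on both sides occurs once in the assembly for each of the 290. A single differing base is enough for that, so it does not show that reads from the flank match a single place. How the authors treated reads with several matches is not given in the sources used here, and its part in these shares was not tested.

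Sequence features common to tRNA genes were found in most of the 11 as in the rest. The B box letters were in 9 of the 11 (81.8%), both exceptions being the alanine copies, and in 262 of the other 279 (93.9%). No alanine gene of anticodon AGC, with or without a peak, and no initiator methionine gene matched these exact letters. The mismatches thus follow family, and they do not show that a B box is missing. A run of at least 4 T lay in the 50 bp after the gene in 11 of 11 and in 278 of 279. An annotated intron was in 16 of the 290 genes, and in 1 of the 11. Inside a protein-coding gene lay 134 tRNA genes, of which 4 had a peak (2.99%), against 7 of the 156 outside (4.49%). The intervals of these last shares overlap (0.819 to 7.47% and 1.82 to 9.03%).

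At the 8 summits the GC content of the 201 bp around the summit ran from 28.9 to 41.3%, and the median of all 2546 windows was 35.8%. Motifs were searched on both strands by their letters, and no motif contains another. A match is a description of the window, not evidence of binding. The DNA replication-related element TATCGATA was in 1 of the 8, at tRNA:His-GTG-1-3, and in 2.95% of all windows. The GATA letters AGATAA were in 2, at tRNA:Lys-TTT-1-1 and tRNA:Gln-TTG-1-2, and in 13.9% of all windows. The GAGA letters GAGAGA (14%) and the E-box CACGTG (2.24%) were in none of the 8.

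Summits of the whole list were most frequent just upstream of tRNA genes, a result that was not planned before the data were seen. When each summit of the whole list was assigned to the nearest tRNA 5′ end within 1000 bp, 183 summits were found, and 49 of them (26.8%, interval 20.5 to 33.8%) lay within 200 bp upstream. The next 200 bp, which hold the gene itself, had 24 (13.1%), and the other windows of that size had 10 to 18. Inside a tRNA gene lay 9 of the 183 (4.92%). The upstream share was 29.7% for coding genes (interval 28.7 to 30.7%) and 15.2% for ncRNA genes (interval 13.6 to 17%), and the tRNA interval includes the coding share and not the ncRNA share. In replicate 1 alone the tRNA share of 20.7% (interval 14.9 to 27.5%) lay between those of coding genes (29.3%) and ncRNA genes (14.3%), with both outside its interval. Since each summit goes to its nearest gene, windows far from a clustered gene lose summits to its neighbours. For tRNA genes alone in their cluster the upstream share was 15.2% (10 of 66, interval 7.51 to 26.1%), which includes the ncRNA share and not the coding share. Without replicate 1 that share was 23.2% (16 of 69, with 5 downstream) and without replicate 3 it was 7.58% (5 of 66, with 7 downstream). The order of upstream and downstream thus differed between the replicates, on small counts.

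The upstream share was not the same in the replicates. In replicate 3 it was 27.6% (54 of 196), with 32 in the 200 bp downstream, and in replicate 1 it was 20.7% (36 of 174), with 28 downstream. Over tRNA genes with no coding start within 1000 bp, 33 of 133 summits were upstream in replicate 3 (24.8%) and 19 downstream. In replicate 1 the order was the opposite, with 19 of 126 upstream (15.1%) and 22 downstream. For tRNA genes with a coding start that near, the shares were 30.6% and 29.8%. Away from coding starts, more summits upstream than downstream were thus seen in replicate 3 and not in replicate 1. The list of both replicates had 28 upstream and 12 downstream there. The intervals of the upstream shares, 17.7 to 33% in replicate 3 and 9.33 to 22.5% in replicate 1, overlap. The difference between the replicates was not tested.

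**Figure D5:**
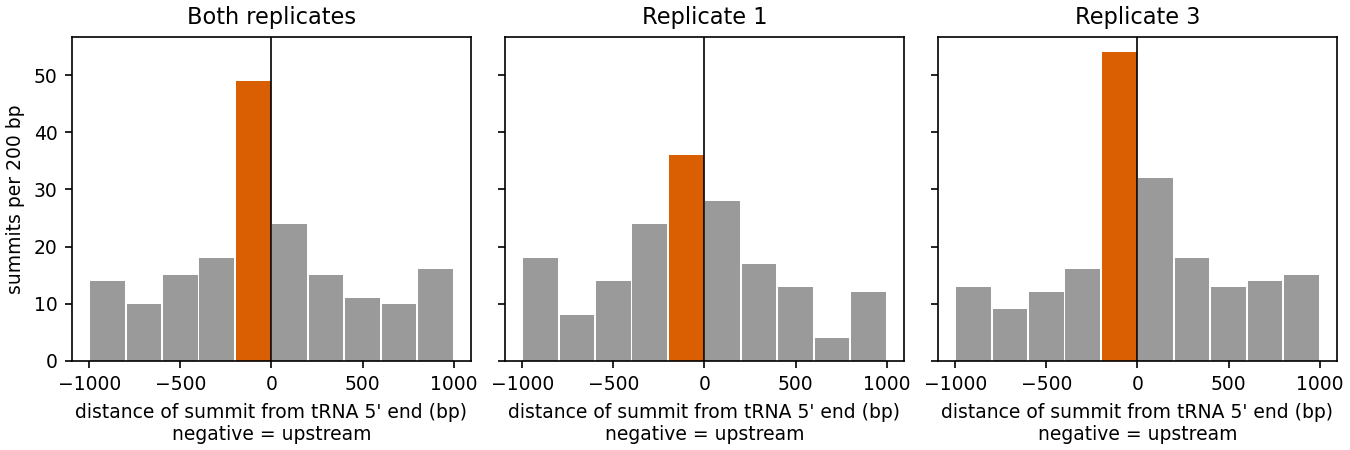
Number of summits (y axis) per 200 bp of distance from the nearest tRNA 5′ end (x axis, bp, negative values upstream) in the whole lists of both replicates, replicate 1 and replicate 3. The orange bar is the 200 bp upstream of the 5′ end, with 49, 36 and 54 summits, and the grey bar to its right has 24, 28 and 32.

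Genes that make and use tRNAs were looked at by lists chosen with earlier results of these data known. Here all annotated starts of a gene were used, and 10.4% of the 13945 coding genes had an optimal-set summit at 500 bp or less from any of them. Of the RNA polymerase III subunits and factors 7 of 26 matched genes had a peak (26.9%, interval 11.6 to 47.8%). These were Brf (3R, 17391370 to 17391745, rank 218, signal 210) and Bdp1 (rank 298, signal 186), subunits of TFIIIB, which positions the polymerase at tRNA genes. The others were Polr2F (signal 113) and Polr2H (signal 110), subunits shared among the nuclear polymerases, CG7099 (signal 107), La, which binds the U run at the end of new polymerase III transcripts (signal 66), and Polr3E (signal 64.3). All but Polr2F shared the summit with a start of another coding gene within 500 bp, such as sds22 for Brf.

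Of the aminoacyl-tRNA synthetases, which load tRNAs with amino acids, and associated genes 5 of 39 had a peak (12.8%, interval 4.3 to 27.4%), near the background of 10.4%. These were SerRS (signal 150), GluProRS (signal 125), IleRS (signal 81.1), the mitochondrial ArgRS-m (signal 75.6) and AsnRS (signal 74.6). All 5 shared the summit with a start of another coding gene within 500 bp, such as CG17260 for SerRS. Of the tRNA processing and modification genes 7 of 38 had a peak (18.4%, interval 7.74 to 34.3%). The highest were Tcs5, of the KEOPS complex (rank 21, signal 567), Elp5, of the Elongator complex (signal 278), and Trmt6, of a tRNA methyltransferase (signal 243). Their summits also lay within 500 bp of a start of CHMP2B, CG1275 and Ent2. The other 4 were RluA-1 (signal 94), Trmt61, the partner of Trmt6 (signal 84.9), Elp6 (signal 76.7) and Rpp20, of ribonuclease P (signal 66.1). Of these 4, all but RluA-1 shared the summit with a start of another coding gene within 500 bp. The intervals of the last pair of lists include the background share, and those of the polymerase III list begin above it at 11.6%, with no test run.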

How the data were processed

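The authors deposited peak lists of ChIP-seq on dm6 and dm3, and the dm6 lists were used (1 optimal IDR set of 2546 peaks, 1 list from both replicates and 1 from each replicate, 30000 peaks each). The peak signal is the authors' deposited signal value, on a scale of its own in each list, used only to rank and describe peaks. The lists also hold a −log10 q value as deposited, 2.66 to 3.63 in the optimal set and as low as 0.0824 in replicate 1, so the whole lists include background regions. Notes deposited with the files derive the list of a replicate from its alignment and 1 further file. Aligner and peak caller names are missing from the labels and notes used here, and read depth is unknown.

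Summits were taken as peak start plus summit offset and set against Ensembl release 115 (BDGP6) and the RefSeq Release 6 sequence; all dm6 peaks ended within the arms. The dm3 lists were not used, since the annotation is of dm6. Every peak of the optimal set was in the list from both replicates. The top 2546 peaks by signal stood for a replicate alone. Clopper-Pearson 95% intervals cover counting error over genes only, and genes sharing peaks are not independent. No test between samples is possible with 1 group, so differences are descriptions. Members, lists and rules were chosen with earlier results of these data known. Named genes were all tRNA genes with a peak, the 10 with the best rank below it, 3 genes on each side of 500 bp, the 5 largest clusters and all list genes with a peak. Of the listed symbols, 6, 3 and 12 had no match, synonyms of a gene were counted once, and CG4038, which the annotation names Gar1 and which belongs to another pathway, was left out. Python 3.11.15, pandas 2.3.3 and SciPy 1.17.1 were used, and the counting was tested on simulated data. Alternatives were other windows, peak subsets, single replicates, cluster gaps and distances.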

Additional observations from a re-analysis of the deposited data

How the results depend on the processing

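No paired analysis was possible because the series has 1 group. The number of tRNA genes with a peak, 11, was 18 with a window of 1000 bp, 5 with the stronger 50% of peaks and 137 with all peaks of the list from both replicates, and it ran from 8 (without replicate 3) to 17 (without replicate 1). It was 8 with 250 bp and 11 to 13 under the other definitions. The number whose summit is nearer a coding start, 2, was 1 with the distance to the nearest base of the gene or with 250 bp, 5 with 1000 bp, and 3 to 4 without a replicate. The number in both top lists, 5, was 3 with 250 bp, 14 with 1000 bp and 94 with all peaks. The number of clusters with a peak was 8 with every gap and 8 to 11 without a replicate. The share near a coding start, 10.1%, was 7.32 to 15.6% with other distances and 7.59 to 8.86% without a replicate. The upstream share, 26.8%, was 15.2% for tRNA genes alone in their cluster and 22.8% with no coding start within 1000 bp. It was 20.7 to 27.6% without a replicate. The upstream share was not planned, and it and these alternatives were chosen after seeing the data. The causes were not tested. A peak list gives no depth, so a tRNA gene without a summit is not shown to lack the protein.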

Other observations

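Other genes that RNA polymerase III is known to read gave mixed values. Of the 96 annotated 5S ribosomal RNA genes, which lie in a tandem array of near-identical copies, 0 had a summit within 500 bp in the optimal set or in the list of both replicates; how repeated sequence was handled is not given in the sources used here, and its part was not tested. All 3 U6 small nuclear RNA genes, neighbours on 3R, had a summit of the list of both replicates within 500 bp, at 352, 252 and 110 bp, and their nearest summit of the optimal set lay 8800 bp or more away. The RNA gene of ribonuclease MRP had a summit at 153 bp in that list, at 125 bp in replicate 1 and at 158 bp in replicate 3, where it was among the top 2546 peaks. The RNA gene of ribonuclease P had none within 500 bp in any list (941 bp at the nearest), and neither did the 7SL RNA genes (1005 bp at the nearest).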
